A study of Mus musculus with 2 samples.

Results

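miR-193 and miR-365 are microRNAs (miRNAs) that lie as neighbours in the mouse genome at 2 paralogous loci, Mir193b with Mir365-1 on chromosome 16 and Mir193a with Mir365-2 on chromosome 11. Their 7 mature arms were chosen by name from the 1900 miRNA probes of each array, and all 7 had a probe. The choice was made with the differences between the diets known, so those differences are given here as a description and not as a test.

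The samples were epididymal adipose tissue, the white fat pad beside the epididymis, from male C57BL/6J mice. Feeding began at 8 weeks of age and went on for 8 weeks, either with a normal diet that held 5% fat or with a high-fat diet that drew 60% of its energy from fat. There was 1 array per diet, with total RNA labelled with Cy5, and the labels do not say how many mice gave RNA to either. No genetic change or drug is named for either group. The arrays held positions 1 and 2 of a slide, so diet, animal and array position cannot be told apart, and no difference below has a replicate check.

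A miRNA gene is transcribed as a longer RNA that folds into a hairpin, and the hairpin is cut into a duplex whose strands are called the 5p and the 3p arm. A retained arm guides the silencing complex to messenger RNAs, mainly through the bases of its seed. The miR-193b and miR-365 cluster is known for its high expression in brown fat. In cultured mouse precursor cells it was reported to favour the brown fat programme and to restrain the muscle programme, with the transcriptional corepressor Runx1t1 as a target of miR-193b. Mice that lack the cluster were later reported to form brown fat. In human white fat, miR-193b was reported to restrain the release of the chemokine CCL2.

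The mature sequences, from RefSeq with build GRCm38.p6, are shown because they decide which probes can be read apart. Capitals mark the seed, bases 2 to 8.
mmu-miR-193a-3p: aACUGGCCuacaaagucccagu
mmu-miR-193b-3p: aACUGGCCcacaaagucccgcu
mmu-miR-365-3p: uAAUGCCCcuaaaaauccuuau
mmu-miR-193a-5p: uGGGUCUUugcgggcaagauga
mmu-miR-193b-5p: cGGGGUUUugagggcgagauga
mmu-miR-365-1-5p: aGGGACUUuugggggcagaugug
mmu-miR-365-2-5p: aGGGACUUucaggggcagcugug

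miR-193a-3p and miR-193b-3p have the same seed, and 19 of their 22 bases are identical. They differ by U9C, A20G and G21C, counted from the 5′ end, with the base of miR-193a-3p first. Whether each probe also bound the other miRNA was not tested, so the pair may not be separate measurements. miR-365-1-5p and miR-365-2-5p also share a seed and 20 of 23 bases, and differ by U10C, G11A and A19C. miR-193a-5p and miR-193b-5p differ at 5 of 22 positions, with different seeds. miR-365-3p has the same sequence at both loci, so its probe cannot tell which locus a molecule came from. Of the array's miRNAs, 1614 had a RefSeq mature sequence by name. None of these outside the 7 arms shared a seed with them, and the closest to any of them was 7 base changes, insertions or deletions away.

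The hairpins show where each arm is cut from, with the 3p arm in capitals. All 4 lie on the plus strand, Mir193a at chr11:79711969-79712034, Mir365-2 at chr11:79726400-79726511, Mir193b at chr16:13449523-13449601 and Mir365-1 at chr16:13453840-13453926 of GRCm38.p6.
Mir193a: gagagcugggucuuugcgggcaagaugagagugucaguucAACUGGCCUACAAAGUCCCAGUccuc
Mir365-2: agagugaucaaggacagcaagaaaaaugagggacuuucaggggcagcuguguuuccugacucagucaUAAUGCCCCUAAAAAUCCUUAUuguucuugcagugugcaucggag
Mir193b: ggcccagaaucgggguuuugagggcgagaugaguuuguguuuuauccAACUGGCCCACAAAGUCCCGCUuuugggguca
Mir365-1: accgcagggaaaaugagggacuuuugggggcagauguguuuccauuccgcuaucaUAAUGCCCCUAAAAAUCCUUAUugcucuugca

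On chromosome 16 the hairpins are 4238 bases apart, and the annotated long non-coding RNA gene Gm32817 spans both. On chromosome 11 they are 14365 bases apart, and no annotated gene spans either. Within 50 kb of these hairpins the annotation holds only 1 other miRNA gene, Mir6365, on the opposite strand of the chromosome 16 locus. Its miRNA, miR-6365, was just above the detection limit of 1.87 on normal diet, with a net signal of 2.09, and was not detected on high-fat diet, with -0.26. It therefore gives no measured difference for this locus.

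**Figure D1:**
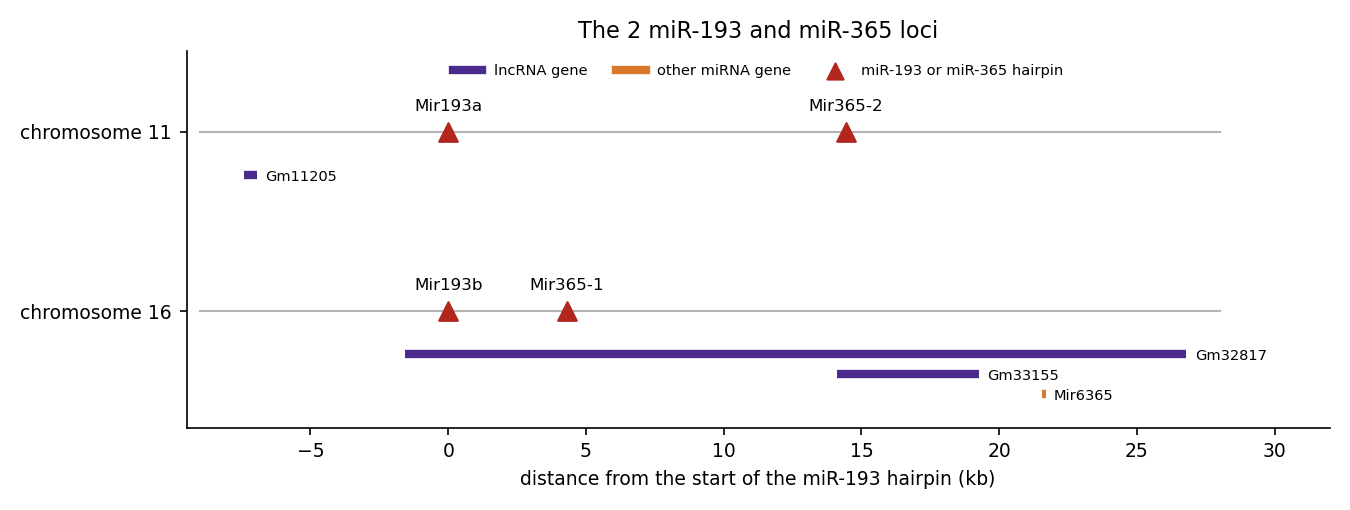
Map of the loci on chromosomes 11 and 16, with the distance from the start of the miR-193 hairpin in kb on the x axis. Triangles are hairpins, dark bars long non-coding RNA genes and the orange bar another miRNA gene; Gm53058, which starts with Gm32817, is not drawn. The hairpins lie 4238 bases apart on chromosome 16, inside Gm32817, and 14365 bases apart on chromosome 11.

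The start of Gm32817 lies upstream of both chromosome 16 hairpins. Their 3p arms were lower on the high-fat array, although miR-365-3p can come from either locus. Their 5p arms were not lower in net signal. For miR-193b-5p it was 28.65 on normal diet and 37.09 on high-fat diet, and for miR-365-1-5p 49.78 and 54.93. The window of 300 bases around the start of Gm32817, chr16:13447702-13448001 on the plus strand of GRCm38.p6, ends 1521 bases before Mir193b. It was searched on both strands for AGGTCA, the half-site of many nuclear receptors, for the GC box GGGCGG, for the CCAAT box and for TATAAA, the usual TATA box. Capitals mark the matches.
Gm32817: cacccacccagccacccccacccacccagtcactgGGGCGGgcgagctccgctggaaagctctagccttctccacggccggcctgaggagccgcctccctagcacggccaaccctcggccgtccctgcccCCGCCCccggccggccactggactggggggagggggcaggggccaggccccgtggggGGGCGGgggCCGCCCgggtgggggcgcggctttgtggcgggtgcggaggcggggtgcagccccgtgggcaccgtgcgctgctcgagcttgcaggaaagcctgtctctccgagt

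The window held 4 matches to GGGCGG, which did not overlap and which 35.7% of 32851 RefSeq promoter windows of the same length hold at least once. It held no AGGTCA (16.3% of windows), CCAAT (37.4%) or TATAAA (13.6%). These letters describe the window and show no binding. The array did not measure the transcript of Gm32817.

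Each miRNA had 1 spot per array. A net signal is the spot's median intensity minus the trimmed mean of the array's blank spots, before any scaling. A miRNA counted as detected above the blank mean plus 2 SD, which is a net signal of 1.87 for normal diet and 1.59 for high-fat diet. Of the 1900 miRNA probes, 1339 were detected on both arrays, the 7 arms among them. The normalised intensity adds an offset of 50 and scales the arrays to each other by quantiles. Log2 differences below were taken on that normalised scale, unless another is named, and are negative where the high-fat array was lower. The only measured error is that of repeated control spots, taken before scaling. Over 4 bright controls with 8 spots each, the SD of a single-spot log2 difference ran from 0.11 to 0.197.

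The 3p arms were lower on the high-fat array, all 3 of them by more than 2-fold. Across all detected miRNAs 0.747% (10 of 1339) lay at least 2-fold lower and 1.27% (17) at least 2-fold higher. At or above the median signal 1.49% (10 of 670) lay at least 2-fold lower. The 3p arms thus make up 3 of the 10, but the arms were chosen on this contrast, and nothing is read from that count. In bulk tissue, fewer cells of a type and less of the miRNA per cell cannot be told apart.

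miR-193b-3p, the arm of the chromosome 16 cluster reported to repress Runx1t1, had a net signal of 284.6 with normal diet and of 94.97 with high-fat diet. Its normalised intensity was 370.9 and 138.7, a log2 difference of -1.42, or 2.67-fold lower. This was rank 5 of 1339 from the lowest difference.

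miR-193a-3p, its relative from chromosome 11, measured 670 in net signal with normal diet and 217.5 with high-fat diet. Its normalised intensity was 699.9 and 262.6, a log2 difference of -1.41, rank 6.

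miR-365-3p, which both loci encode, measured 882.8 with normal diet and 352.5 with high-fat diet, again as net signal. Its normalised intensity was 919.6 and 372.6, a log2 difference of -1.30, or 2.47-fold lower, at rank 10. The differences of the 3 arms lay within 0.116 of each other on the log2 scale. This is less than the SD of single control spots for 3 of the 4 bright controls and just above that of the other (0.11), so the arms were not ordered. Those SDs were taken before scaling, where miR-193a-3p lay at -1.42, miR-193b-3p at -1.19 and miR-365-3p at -1.21.

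The 5p arms are dimmer on these arrays, and none reached 2-fold on the normalised scale. miR-193a-5p, cut from the same hairpin as miR-193a-3p, had net signals of 15.13 with normal diet and 6 with high-fat diet, or 8.1 and 3.79 times the detection limit. Its normalised intensity was 72.34 and 58.9, a log2 difference of only -0.30, since the offset exceeds its net signal. The net signal itself on the high-fat array was 0.396 of that on the normal-diet array, a ratio close to those of miR-193a-3p (0.325), miR-193b-3p (0.334) and miR-365-3p (0.399). Read against the surroundings of each spot in place of the blanks, its log2 difference was -0.07.

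The other 5p arms did not follow their 3p partners. miR-193b-5p had net signals of 28.65 with normal diet and 37.09 with high-fat diet, and a log2 difference of -0.01 after normalisation. miR-365-1-5p, from the chromosome 16 locus, had 49.78 and 54.93 (log2 difference -0.10). miR-365-2-5p, from chromosome 11, had 20.13 and 21.85 (-0.10). All 3 were thus slightly higher on the high-fat array before scaling and slightly lower after it. The scaled differences were below 0.11, the lowest SD of the 4 bright controls. Those controls are brighter than these arms, and their SDs were taken before scaling. Without scaling the log2 differences were 0.124 for miR-193b-5p, 0.056 for miR-365-1-5p and 0.014 for miR-365-2-5p. A dim control with net signals of 5.345 and 7.06 had an SD of 0.0607, and a brighter one (116.6 and 97.33) 0.112. Only miR-193b-5p exceeded these SDs. The arms of 1 hairpin therefore had different differences at Mir193b, -1.42 against -0.01. miR-365-3p (-1.30) stood apart from both miR-365 5p arms in the same way.

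**Figure D2:**
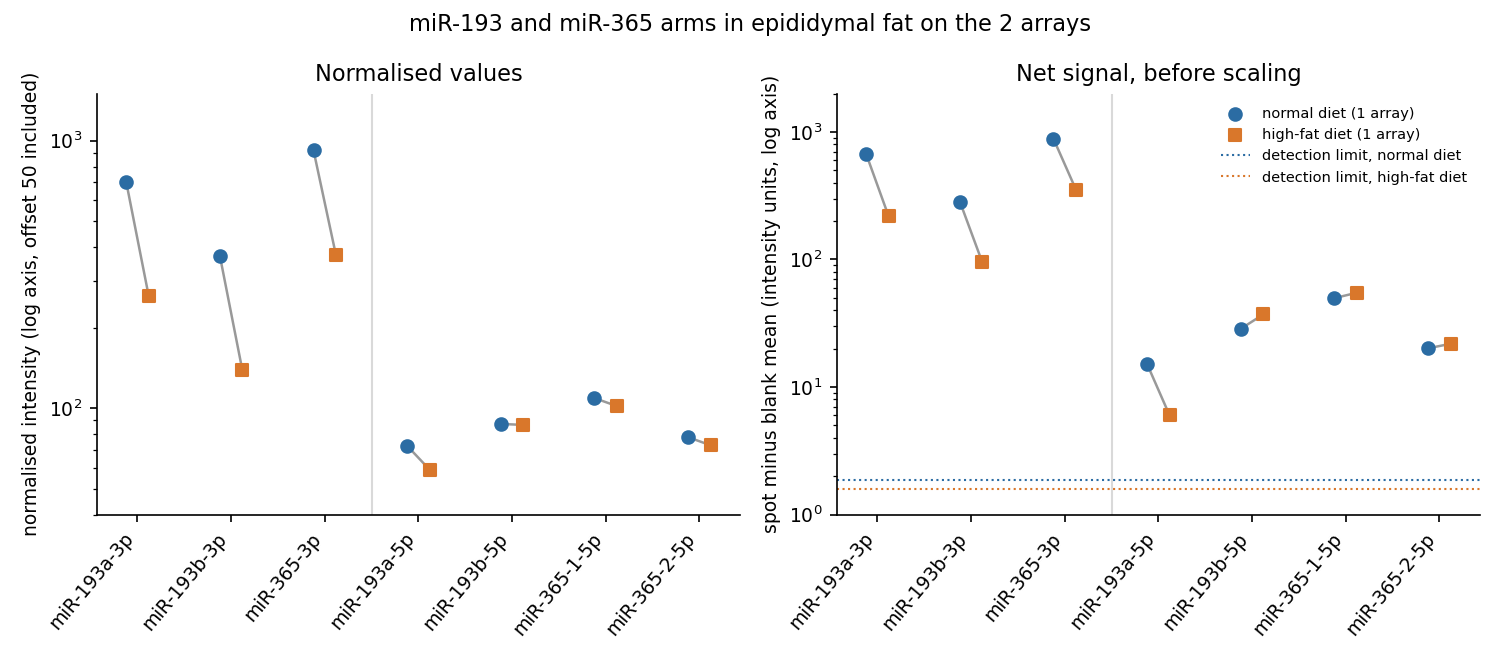
Normalised intensity (left, offset of 50 included) and net signal before scaling (right) of the 7 arms, each on a log axis, with 1 array per diet and no error bars because each point is 1 spot. Circles are normal diet and squares high-fat diet, and dotted lines are the detection limits. The 3 3p arms and miR-193a-5p have a lower net signal on the high-fat array, and the other 3 5p arms do not.

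**Figure D3:**
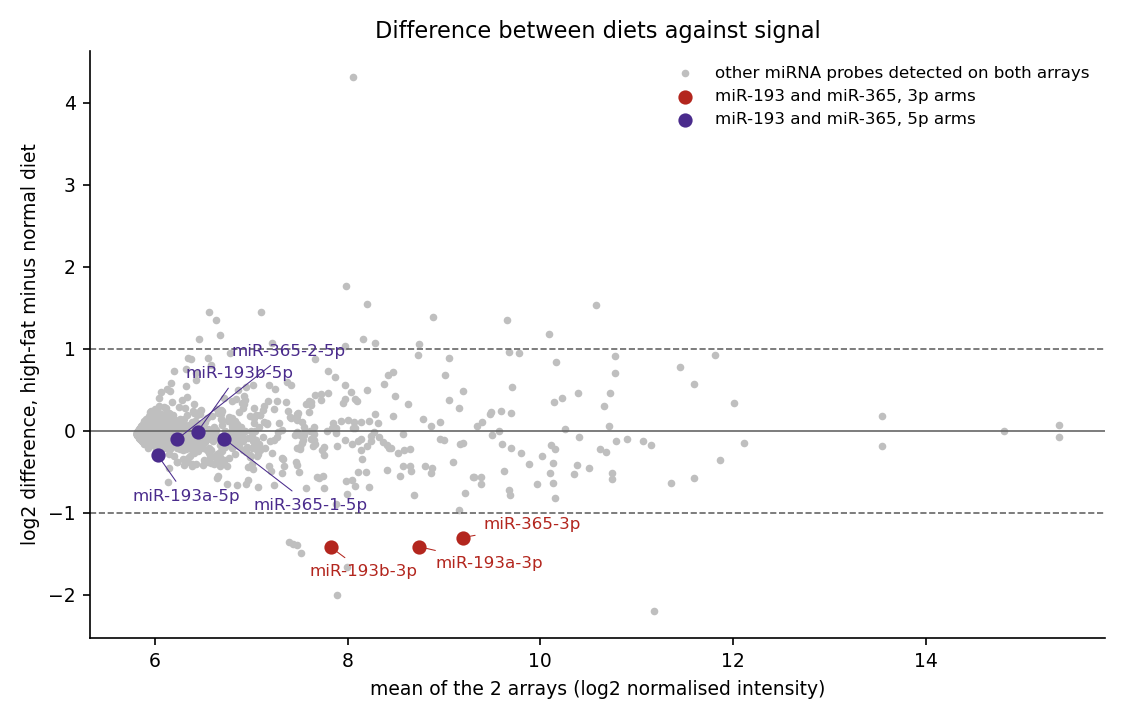
Log2 difference, high-fat minus normal diet, against the mean log2 normalised intensity of the 2 arrays, for the 1339 probes detected on both. Dashed lines mark 2-fold. The 3p arms lie between -1.42 and -1.30, and the 5p arms between -0.30 and -0.01 at lower signal.

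The authors' deposited values, which are net signals times 1 factor per array and hold no offset, put miR-193a-5p beside the 3p arms. They were 28.12 on normal diet and 9.335 on high-fat diet for miR-193a-5p (log2 difference -1.59). For miR-193a-3p they were 1245 and 338.3 (-1.88), for miR-193b-3p 529 and 147.8 (-1.84), and for miR-365-3p 1641 and 548.5 (-1.58). On this scale 4 of the 7 arms were at least 2-fold lower, against 4.63% of all 1339.

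The share of all miRNAs past 2-fold on the deposited scale varied with the signal. Of 219 miRNAs with a normal-diet net signal above 100, which include the 3p arms, 13.2% were at least 2-fold lower. Of 297 with a normal-diet net signal of 10 to 20, which include miR-193a-5p, 1.35% (4) were. These brackets were chosen after the values had been seen. They are set by the normal-diet signal, which also enters the difference, so their shares are partly fixed by the choice and are given as a description only. The other 5p arms stayed close to equal in the deposited values, with log2 differences of 0.12 for miR-193b-5p, -0.11 for miR-365-1-5p and -0.14 for miR-365-2-5p.

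The 3p arms stayed below their normal-diet values under each of the 10 alternative settings of scaling, background, offset, values and detection limit. The raised detection limit changes only which miRNAs count as detected, so it repeats the main differences and could not move them. miR-193a-3p was at least 2-fold lower in all 10 (-2.43 to -1.10). miR-365-3p missed 2-fold with spike-control scaling alone (-0.89). miR-193b-3p missed it with that scaling (-0.87) and with the local background (-0.73). At least 2-fold lower were thus 1 of the 7 arms with spike-control scaling, against 0.373% of all detected miRNAs, and 2 of the 7 with the local background, against 1.34%. Spike-control scaling, which sets the spike spots equal, moved the median of all detected miRNAs from -0.04 to 0.35. Relative to that median miR-193a-3p lay at -1.45, miR-193b-3p at -1.22 and miR-365-3p at -1.23.

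miR-193a-5p depended on the offset. It was at -0.62 with an offset of 16 and at -1.95 by plain subtraction of the blank mean, where 8.22% of all detected miRNAs were at least 2-fold lower, but at -0.07 with the local background and at 0.09 with spike-control scaling. miR-193b-5p went from -0.03 to 0.44 over all settings. miR-365-1-5p ranged from -0.32 to 0.38 and miR-365-2-5p from -0.36 to 0.33, both highest with spike-control scaling.

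The local background, read in a ring around each spot, was itself high around the bright arms. At blank spots its median was 64.43 with normal diet and 63.01 with high-fat diet. Around miR-193a-3p it was 402.9 and 275.7, beside spot medians of 745.7 and 286.7. The spot on the high-fat array thus stood only just above its own ring, and the log2 difference with this background was -2.43. Around miR-365-3p the ring read 417.8 and 324.9 (log2 difference -1.91), and around miR-193b-3p 239 and 106.1. Around miR-193b-3p the ring was thus lower on the high-fat array by more than around the other 3p arms, and the difference shrank to -0.73. Around the dim miR-193a-5p the ring read 72.1 with normal diet and 63.72 with high-fat diet, beside spot medians of 90.78 and 75.24.

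**Figure D4:**
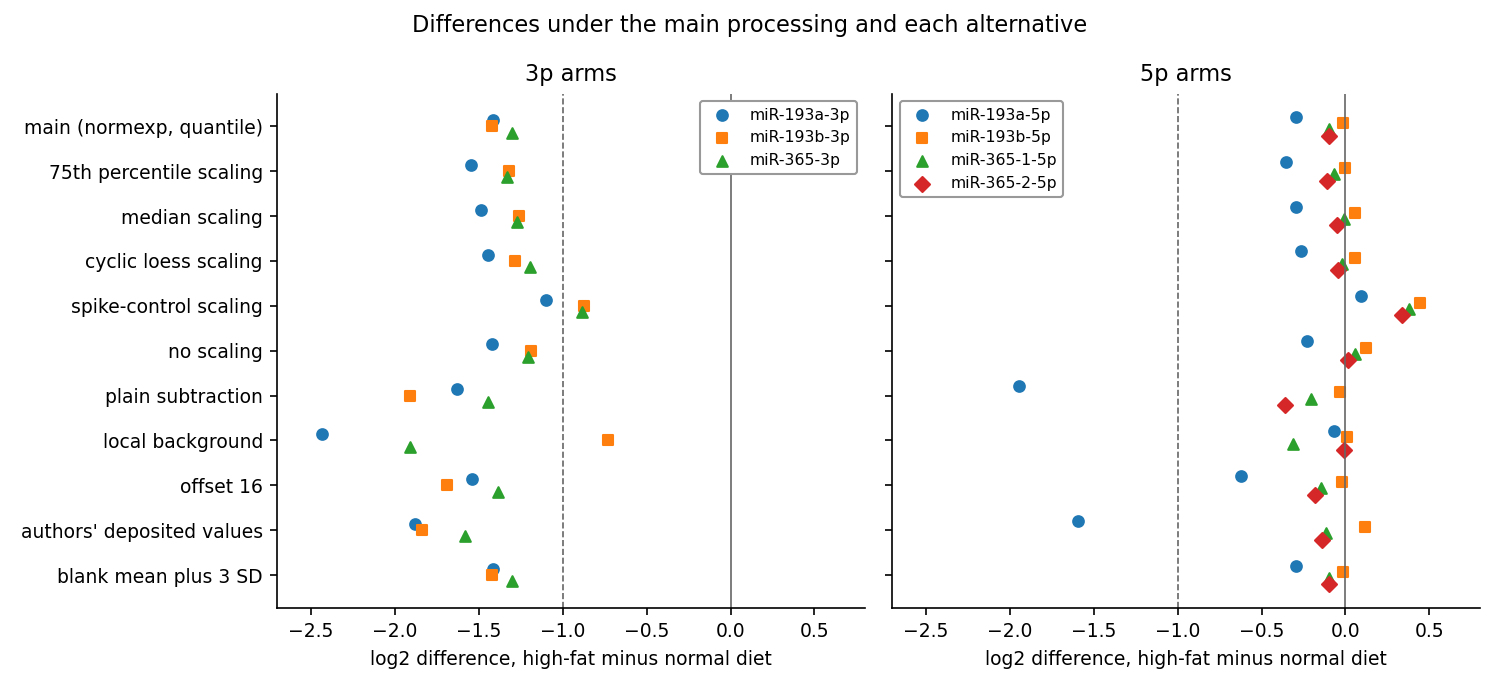
Log2 difference, high-fat minus normal diet, of each 3p arm (left) and 5p arm (right) under the main processing and 10 alternatives. The points for the raised detection limit repeat the main ones by design. The dashed line marks 2-fold lower. All 3p points lie below 0, and among 5p arms only miR-193a-5p passes the dashed line, by plain subtraction and in the authors' deposited values.

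The 3p probes lay in array blocks 19, 20 and 27. The other miRNAs of these blocks detected on both arrays, 41, 42 and 42 of them, had median log2 differences of -0.02, -0.02 and -0.05. In block 19, 2 of the others were at least 2-fold lower, and in blocks 20 and 27 none was. miR-193b-5p, which did not differ by 2-fold, lies in block 19 with miR-193b-3p.

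The share of G and C in the mature sequence overlapped between the arms with a lower net signal and the others through miR-193b-3p alone. The remaining lower arms had a smaller share than each of the others. Among the lower arms the share was 50% for miR-193a-3p, 59.1% for miR-193b-3p, 31.8% for miR-365-3p and 54.5% for miR-193a-5p. Among the others it was 59.1% for miR-193b-5p, 56.5% for miR-365-1-5p and 60.9% for miR-365-2-5p. Across 1138 miRNAs detected on both arrays and matched to a sequence, this share and the log2 difference correlated with r = 0.17, and with r = 0.22 over the 569 of at least their median signal, which include the 3p arms. The miRNAs share both arrays and are not independent replicates.

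The miRNAs nearest to the 3p arms in their difference between the diets were the same for all 3 arms. Among 659 other miRNAs of at least the median signal they were miR-378d (-1.39), miR-378c (-1.38) and miR-150-5p (-1.35). Likeness here is the distance between log2 differences over 2 arrays, from 0.024 for miR-193a-3p and miR-378d to 0.087 for miR-365-3p and miR-378d. Read against the ring, miR-378d (0.35) and miR-150-5p (0.34) lay above 0, while the 3p arms and miR-378c (-1.18) lay below it.

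Other miRNAs reported to promote brown or beige fat were mostly lower, and apart from miR-378a-3p by less than the miR-193 and miR-365 3p arms. Of 12 on the list, which leaves out miR-193 and miR-365, 10 were detected on both arrays: 8 were lower and 2 higher on the high-fat array, and their median log2 difference was -0.22 beside -0.04 over all detected miRNAs. miR-378a-3p, which lies within the gene of the metabolic coactivator Ppargc1b, was the only 1 past 2-fold (452.3 against 142.7, -1.66). miR-26b-5p followed at -0.65 (834.9 on normal diet and 533.1 on high-fat diet). The largest values above 0 were 0.05 for miR-455-3p, reported to drive brown fat differentiation, and 0.01 for miR-182-5p. miR-455-5p and miR-196a-5p passed the detection limit with high-fat diet only. Spike-control scaling put the list's median at 0.04, beside 0.35 over all detected miRNAs. The local background put it at 0.01, beside -0.01 over all.

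miRNAs reported to restrain brown or beige fat went both ways. All 9 on the list were detected on both arrays, 6 lower and 3 higher, with a median of -0.08. miR-34a-5p, reported to hold back fat browning in obese mice, was the only 1 past 2-fold (176.3 against 360.6, log2 difference 1.03), or 0.20 with the local background. miR-125b-5p was at 0.40, but at -0.77 with the local background. miR-27b-3p, which targets Prdm16, was at -0.56 and miR-106b-5p at -0.56. The list's median was 0.32 with spike-control scaling, beside 0.35 over all detected miRNAs. Among all detected miRNAs 862 of 1339 (64.4%) lay below their normal-diet value, so a majority of lower members alone sets neither list apart.

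Markers of other cell types, and of the epididymis and testis, which are organs apart from the fat pad, also differed between the arrays. Their part in the values of miR-193 and miR-365 was not tested. The summed net signal of 11 epididymis and testis miRNAs was 22.54 on normal diet and 3106 on high-fat diet. All 5 of them that were detected on both arrays were higher after normalisation, beside 471 of the 1339 miRNAs detected on both. The other 6 passed the detection limit with high-fat diet only, as did 171 of all 1900 miRNA probes. The summed net signal of 6 epithelial miRNAs, the miR-200 family with miR-205-5p, was 47.91 and 407.1. Here 5 of 5 were higher, again beside 471 of 1339, and miR-205-5p was detected on the high-fat array only. The summed signal of 3 erythrocyte miRNAs was 5534 and 1050, with all 3 lower, beside 64.4% of all detected miRNAs. The sum over 6 leukocyte miRNAs was 880.4 and 465.1. All 6 were lower after normalisation, beside 64.4% of all detected miRNAs, but miR-155-5p was close to equal in net signal (4.956 and 5.068). Both endothelial miRNAs were lower (4318 and 2670 in sum), again beside 64.4% of all detected miRNAs. With the local background the median log2 difference turned from -0.67 to 1.28 for the endothelial list. It moved from -0.62 to -0.04 for the leukocyte list, with miR-150-5p and miR-146a-5p (0.28) above 0, from 0.80 to 0.18 for the epithelial list and from 1.12 to 0.37 for the epididymis and testis list. The erythrocyte median was -2 and, with the local background, -1.69.

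Since the labelled tissue is fat, 11 miRNAs abundant in fat cells were also read. All 11 were detected on both arrays, but so were 1339 of all 1900 miRNA probes, so their detection does not check the tissue. Of the 11, 10 lay lower on the high-fat array, beside 64.4% of all detected miRNAs. Their summed net signal was 16980 on normal diet and 9962 on high-fat diet. The lowest log2 difference was -0.81 and the median -0.64. With the local background this median was 0.26. The miR-193 and miR-365 3p arms lay lower by more than any of these 11 on the main scale. That order did not hold with the local background, where let-7b-5p (-2.80) lay below all 3p arms, and miR-24-3p (-2.36), miR-143-3p (-1.74) and miR-107-3p (-0.87) below miR-193b-3p (-0.73). Of 7 muscle miRNAs, the programme that miR-193b was reported to restrain, 4 were detected on both arrays (median -0.00185, 2 higher and 2 lower). miR-208a-3p, miR-208b-3p and miR-499-5p were detected on neither.

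**Figure D5:**
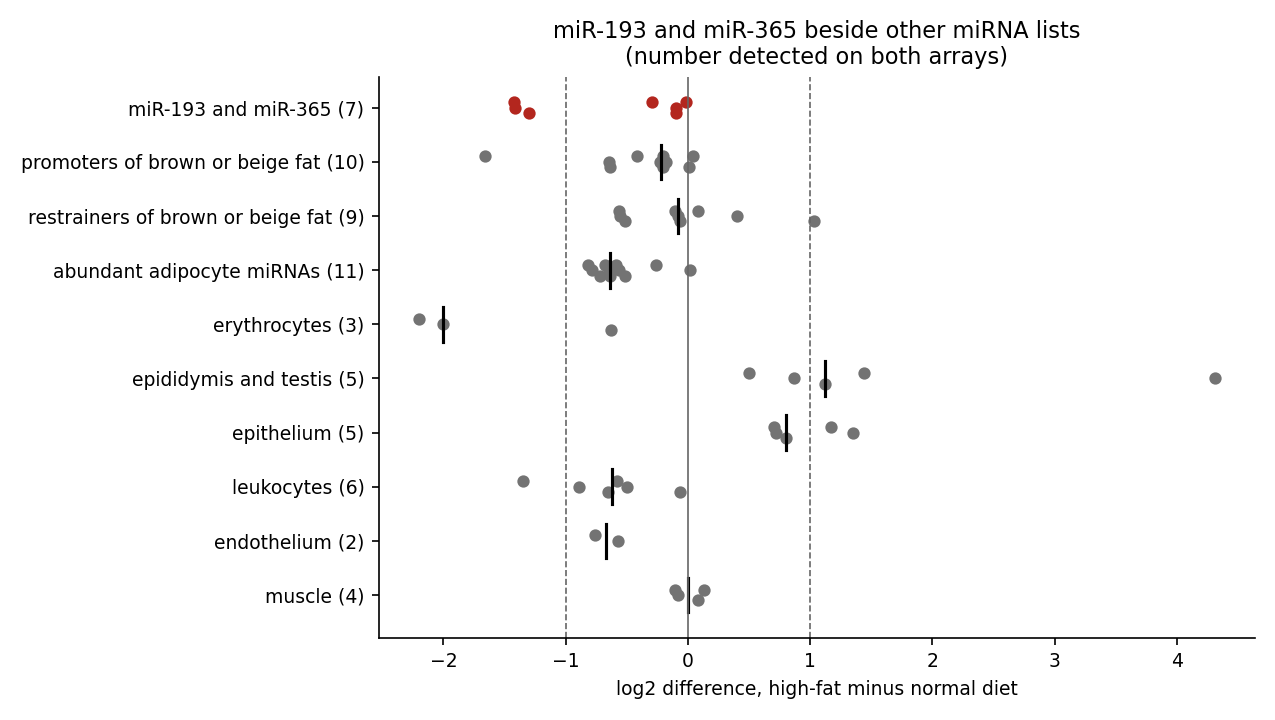
Log2 differences, high-fat minus normal diet, of the 7 miR-193 and miR-365 arms and of the miRNAs of 9 lists detected on both arrays, with the number in parentheses. Black bars are list medians and dashed lines 2-fold. The 3 lowest miR-193 and miR-365 points are the 3p arms, below all 11 abundant adipocyte miRNAs and above miR-378a-3p of the list of promoters.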

How the data were processed

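The authors' deposited scanner files give, per the file headers, the median intensity of each spot and of its surroundings at 1 wavelength, merged from several scanner gains. No source used here names the scanner software. Per the labels' protocols, total RNA was labelled with Cy5. The authors' deposited table of processed intensity equalled the spot median minus the trimmed blank mean, times 1.858 (normal diet) and 1.556 (high-fat diet), within 0.00024.

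Here, spot medians of 3200 spots per array were corrected with limma 3.58.1 (R 4.3.3, normexp, offset 50, with the mean of 896 blank spots as background, 5% trimmed at each end), quantile-scaled over the 1900 probes for miRNAs and log2-transformed. These log2 values were computed here and differ from the authors' deposited, linear ones. A 2-fold rule of size stands in for a test, since each diet has 1 array; the steps were tested on simulated data. Array data give no read depth, and the number of arrays limits precision.

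The members, lists and rules were chosen with earlier results of these data known. Named were the 7 arms, miRNAs within 50 kb or with the same seed, the 3 nearest in difference to each arm past 2-fold, and the 2 largest differences in each direction of the lists of promoters and restrainers of brown fat. Probes named for several miRNAs (12) count among all miRNAs only. Sequences came from RefSeq tables for GRCm38.p6, read with Python 3.11.15.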

Additional observations from a re-analysis of the deposited data

How the results depend on the processing

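Of 70 values of the 7 arms under 10 alternatives, 47 lay within 0.197, the largest SD of single control spots, of the main value, 23 moved further, and no arm past 2-fold changed sign. The raised detection limit leaves each difference at its main value, so its share of the 47 was fixed in advance. The number of arms at least 2-fold lower was 3, and 1 with spike-control scaling, 2 with the local background and 4 by plain subtraction and in the authors' deposited values. The number of all miRNAs at least 2-fold lower was 10. It was 5 with spike-control scaling, 110 by plain subtraction, 18 with the local background and 62 in the authors' deposited values. In those values 29 of them had a normal-diet net signal above 100 and 4 had 10 to 20. The number at least 2-fold higher was 17, and 45 with spike-control scaling, 65 by plain subtraction, 30 with an offset of 16 and 101 in the deposited values. Plain subtraction and the deposited values hold no offset, so dim miRNAs can pass 2-fold there. What set the values with the local background and the spike controls apart was not tested. No paired analysis was possible because each diet has 1 array and the labels carry no replicate numbers, and for the same reason no array could be left out. Signal over background limits the 5p arms, whose net signals ran from 6 to 54.93.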
